A study of Mus musculus with 2 samples.

Results

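The cells described here are C1q-positive liver macrophages with little Gpnmb. They were chosen by raw UMI counts (molecules counted once each by a molecular identifier): at least 5 UMIs of C1qa, C1qb and C1qc together, at most 1 UMI of Gpnmb, none of Clec4f, none of Cd3e or Cd79a, and at most 1 UMI of Kdr, Ptprb and Stab2 together. Barcodes had to show 200 genes or more, with mitochondrial transcripts no more than 10% of their UMIs. Of 5978 such barcodes from recipients of Trem2-/- marrow 212 met the rule, as did 419 of 6598 from recipients of Trem2+/+ marrow, 631 of 12576 in all.

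The recipients in both groups were male C57Bl6/J mice that had been lethally irradiated and had recovered for 6 weeks after the transplant. For the next 4 weeks they ate the MCD diet, which lacks methionine and choline and is a feeding model of non-alcoholic steatohepatitis (NASH). One group had received Trem2-/- marrow and the other Trem2+/+ marrow from littermates. Viable CD45+ cells of 4 livers per group were sorted, combined in equal parts and sequenced as 1 droplet library per group with 10x Genomics 5′ v2 chemistry. Only cells derived from the transplant carry the donor genotype, and resident macrophages that outlive irradiation keep that of the host. No group without the diet was analysed here.

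C1q is the recognition unit of the classical complement pathway, and macrophages are among its main producers. In a fatty liver, monocytes from the blood enter the tissue and mature into macrophages, some of which take on a lipid-associated state with high Gpnmb, Cd9, Cd63, Fabp5 and Spp1. Kupffer cells, the resident macrophages, are marked by Clec4f. TREM2 is a surface receptor for lipids and apolipoproteins that signals through the adaptor TYROBP and is abundant in lipid-associated macrophages. The cells chosen here are C1q producers that the rule sets outside both of the better-known states by their Gpnmb and Clec4f counts alone. Some of them still held Kupffer or lipid-associated genes, as described further on. The comparison asks how the chosen cells differ when the transplanted marrow lacks Trem2.

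With 1 library per group there is no replicate check and no test between the groups, and mice within a pool were not separated. All intervals are 95% intervals that cover counting error only, so they leave out differences among mice and among cells, and UMIs of 1 cell are not independent. A level in CPM is the gene's part of all UMIs of the cells described, scaled to 1 common total. Differences are log2 ratios of Trem2-/- over Trem2+/+. The Gpnmb-low macrophages held 1455205 UMIs in the Trem2-/- library and 2392442 in the Trem2+/+ library, with medians of 6553.5 and 5173 UMIs and 2134 and 1840 genes per cell. The 2 libraries shared 56 of their barcode sequences, 53 among the kept cells, and no sequence was a chosen cell in both.

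Trem2 itself (chr17:48346401-48354147, + strand, mm10) was read first as a check of the labels. Its UMIs numbered 32 among the Trem2-/- cells (21.99 CPM), against 801 among the Trem2+/+ cells (334.8 CPM), so the log2 ratio was -3.93 (-4.49 to -3.42). The gene was detected in 11.8% of the Trem2-/- cells and in 57.5% of the Trem2+/+ cells. After each cell was thinned to 2000 UMIs, the shares were 4.94% of 162 cells and 40.6% of 308 cells, while T and B cells, which should lack Trem2, gave 0.129% and 0.417%. No Trem2-/- cell held more than 3 Trem2 UMIs, whereas Trem2+/+ cells reached 24. The sources used here do not say which stretch of Trem2 is deleted, and the origin of the remaining UMIs was not tested.

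The label was then set against macrophage genes that the rule did not use. Apoe, an apolipoprotein secreted by macrophages, stood at 13872 CPM in Trem2-/- cells and 16771 CPM in Trem2+/+ cells. Adgre1, which encodes the macrophage surface protein F4/80, stood at 242 and 236 CPM, and Ms4a7, a membrane protein of macrophages derived from monocytes, at 157 and 205 CPM. Csf1r, the receptor for the macrophage growth factor CSF1, was detected in 79.6% of thinned Trem2-/- cells and 84.4% of thinned Trem2+/+ cells, against 2.72% and 3.23% of T and B cells. The genes of the rule itself are no finding: C1qb, for instance, stood at 4082 and 4158 CPM. Adgre1 was detected in 32.1% and 31.5% of thinned cells, Ms4a7 in 16.7% and 22.4%, and Ccr2, a classical monocyte marker, in 38.9% and 39.6%. Without thinning, 58.0% of Trem2-/- and 54.7% of Trem2+/+ cells held at least 1 UMI of Ly6c2, Ccr2 or Chil3. The name macrophage fits the levels of Apoe, Adgre1 and Csf1r, but many of the cells also held monocyte genes. A fraction of these, described further on, had little Ms4a7.

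Marker lists of lymphoid and erythroid cells were low. The rule had removed cells with Cd3e or Cd79a, which belong to the T and B cell lists, so low lymphoid sums are in part its own doing. It had also limited Clec4f of the Kupffer list and Kdr, Ptprb and Stab2 of the endothelial list. The 8 T cell genes summed to 8.93 CPM in Trem2-/- cells and 12.5 CPM in Trem2+/+ cells, with 2 and 1 of them at 0, and the 7 B cell genes to 46.0 and 38.9 CPM. The 5 erythroid genes summed to 1.37 and 0.418 CPM, with 4 of 5 at 0 in each library. Among myeloid lists, the classical monocyte genes summed to 1391 and 1094 CPM and the Kupffer genes to 866 and 594 CPM. Those of nonclassical monocytes summed to 807 and 687 CPM and those of plasmacytoid dendritic cells to 487 and 504 CPM. Sums of the same order as the last came from the 8 neutrophil genes (348 and 512 CPM), the 8 hepatocyte genes (359 and 428 CPM) and the 8 endothelial genes (378 and 391.7 CPM). The part of these in the differences below was not tested beyond the alternatives given at the end.

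The limits of the rule cut through a continuum. Cells with no Gpnmb UMI numbered 190 in the Trem2-/- library and 346 in the Trem2+/+ library, and those with 1 UMI numbered 22 and 73. Just outside, 13 and 35 cells had 2 UMIs, and 63 and 300 had 3 or more. Cd63, a tetraspanin of late endosomes that is high in lipid-associated macrophages, stood at 311 and 576 CPM in cells with 1 Gpnmb UMI, at 747 and 724 CPM in cells with 2, and at 1261 and 1615 CPM in cells with 3 or more. At the C1q limit, 20 and 40 chosen cells had 5 or 6 C1q UMIs, while 36 and 98 cells with 3 or 4 lay just below it. Apoe was 5009 and 9083 CPM in the cells just inside that limit and 1675 and 3910 CPM in those just outside.

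Gpnmb-low macrophages were a smaller share of the sorted cells in the Trem2-/- library. They made up 3.55% of kept cells (exact binomial 3.09 to 4.05) there, against 6.35% (5.77 to 6.97) of the Trem2+/+ cells, and the log2 ratio of these shares was -0.84 (-1.07 to -0.61). Among all C1q-positive cells, however, the share was 42.6% (38.2 to 47.0) of 498 Trem2-/- cells and 41.3% (38.3 to 44.4) of 1014 Trem2+/+ cells, a log2 ratio of 0.043 (-0.14 to 0.22). C1q-positive cells with at least 2 Gpnmb UMIs made up 1.27% of kept Trem2-/- cells and 5.08% of kept Trem2+/+ cells, a log2 ratio of -1.998. Those with at least 1 Clec4f UMI made up 3.51% and 3.94%, a log2 ratio of -0.17 (-0.42 to 0.09). A share of sorted cells also moves with the other cells in the sort: T and B cells made up 32.6% of kept Trem2-/- cells and 22.8% of kept Trem2+/+ cells, and the part of this in the lower share was not tested.

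Set against C1q-positive cells with at least 2 Gpnmb UMIs, the Gpnmb-low macrophages had lower levels of lipid-associated genes and higher levels of several monocyte genes, in both libraries. The 10 lipid-associated markers, Gpnmb among them, summed to 2627 CPM in Gpnmb-low against 9476 CPM in Gpnmb-high cells of the Trem2-/- library, and to 3796 against 15559 CPM in the Trem2+/+ library. Since the gates were cut on the same counts, this is a description with no test. Of 2831 genes that reached 50 CPM in at least one of the gates in each library, 90 (3.18%) were at least 1.5-fold higher in the Gpnmb-low cells of both libraries, and 130 (4.59%) at least 1.5-fold lower. The largest differences on the lower side included Atp6v0d2, a subunit of the proton pump that acidifies lysosomes, at 4.12 CPM in Gpnmb-low cells against 70.7 CPM in Gpnmb-high cells of the Trem2-/- library, and 5.85 against 156 CPM in the Trem2+/+ library. Fabp5, a carrier of fatty acids inside the cell, stood at 185 against 1255 CPM and at 229 against 2261 CPM in the same order of libraries. Mmp12, the macrophage elastase, stood at 99.0 against 763 CPM and at 143 against 1270 CPM. F7, Il7r, Mmp19, Anxa1 and Cd63 completed the 8 lowest.

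On the higher side, Plac8, a gene of classical monocytes, stood at 496 CPM in Gpnmb-low against 116 CPM in Gpnmb-high cells of the Trem2-/- library, and at 406 against 54.6 CPM in the Trem2+/+ library. Slpi, a secreted inhibitor of neutrophil elastase, stood at 289 against 30.1 CPM and at 430 against 96.8 CPM. Adgre4, an adhesion receptor of nonclassical monocytes, stood at 149 against 51.0 CPM and at 115 against 32.8 CPM. The D-type cyclins Ccnd1 and Ccnd2, which carry cells through G1, were also among the 8 highest, together with Grasp, Ly6i and Fcna. The median depth was lower in the Gpnmb-low cells, at 6553.5 against 10007 UMIs in the Trem2-/- library and 5173 against 9085 UMIs in the Trem2+/+ library.

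**Figure D1:**
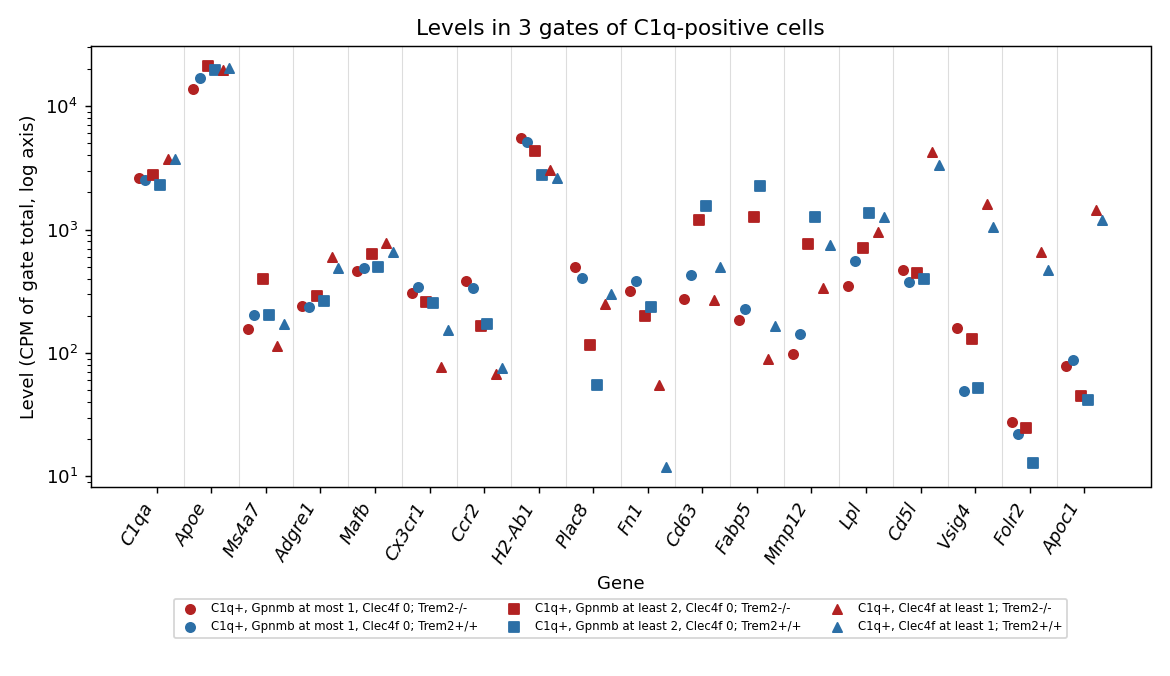
Levels (CPM of the summed UMIs, log axis) of 18 genes in Gpnmb-low macrophages (circles), C1q-positive cells with at least 2 Gpnmb UMIs (squares) and C1q-positive cells with at least 1 Clec4f UMI (triangles), red for Trem2-/- and blue for Trem2+/+ marrow. Fabp5, Cd63 and Mmp12 are highest in the squares, Cd5l, Vsig4, Folr2 and Apoc1 in the triangles, and Plac8 and Ccr2 in the circles, in both libraries.

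Against Clec4f-positive cells the distance was larger. Of 2989 genes that passed the same minimum, 214 (7.16%) were at least 1.5-fold higher and 274 (9.17%) at least 1.5-fold lower in the Gpnmb-low cells of both libraries. The 8 lowest genes were close to missing or far below the Clec4f-positive cells, although some Kupffer genes, such as Cd5l, were present in a fraction described further on. C6, a terminal complement component, stood at 0.687 CPM in Gpnmb-low against 484 CPM in Clec4f-positive cells of the Trem2-/- library and at 1.25 against 209 CPM in the Trem2+/+ library. Folr2, a folate receptor of resident macrophages, stood at 27.5 against 660 CPM and at 22.2 against 468 CPM, and Apoc1, an apolipoprotein, at 78.3 against 1442 CPM and at 87.4 against 1197 CPM. Marco, Chp2, Scd1, Fabp7 and Paqr9 were the other 5 of the lowest 8. On the higher side, Fn1, which encodes fibronectin, stood at 320 against 55.0 CPM and at 383 against 11.9 CPM, and Ptgs2, which encodes the prostaglandin synthase COX-2, at 284 against 23.2 CPM and at 238 against 33.2 CPM. Spp1, S100a4, S100a6, Osm, Lat2 and Ass1 were the others.

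Between the libraries, the levels of most genes in the Gpnmb-low macrophages were close. Of 4690 genes that averaged 20 CPM or more over the libraries and held 100 UMIs or more, 92 (1.96%) were at least 1.5-fold higher and 99 (2.11%) at least 1.5-fold lower in Trem2-/- cells, and the median log2 ratio was -0.01. Measured beside that background, genes induced by interferon-gamma were higher, and antioxidant and lipid-associated genes included several that were lower. The lists of genes used here were written with earlier results of these data known, so their direction is a description.

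**Figure D2:**
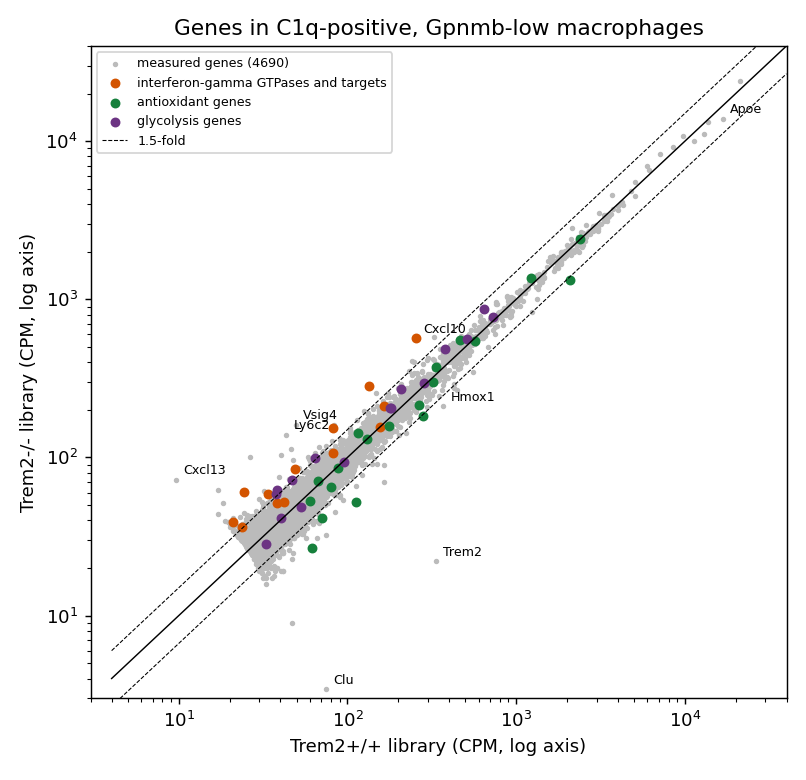
Level of each of the 4690 measured genes in Gpnmb-low macrophages of the Trem2-/- library (y axis) against the Trem2+/+ library (x axis), both in CPM on log axes, with dashed lines at 1.5-fold. Trem2 lies far below the diagonal, the interferon-gamma genes (orange) lie on or above it, and 5 of the antioxidant genes (green) lie at or under the lower dashed line; Clu lies where it does through 1 Trem2+/+ cell, and 80 of the 105 Trem2-/- UMIs of Cxcl13 lie in 1 cell.

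Interferon-gamma is the cytokine by which T and NK cells activate macrophages. Its targets include the guanylate-binding proteins (Gbp genes) and immunity-related GTPases, which attack the membranes around pathogens inside cells, and the chemokines CXCL9 and CXCL10, which draw T cells that bear CXCR3. Of 13 measured genes of this list, 8 were at least 1.5-fold higher in Trem2-/- cells, none was 1.5-fold lower and all 13 had a log2 ratio above 0. The median log2 ratio was 0.79, the highest of the 35 gene groups compared. In the 89 and 190 cells with no Ly6c2, Ccr2 or Chil3 UMI, just 4 of these genes reached the minimum, with a median of 0.07 and 1 past 1.5-fold, whereas the summed UMIs of the whole list still gave 0.78 (0.62 to 0.95).

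Gbp7 had the largest difference, at 60.5 CPM in Trem2-/- cells and 24.2 CPM in Trem2+/+ cells, a log2 ratio of 1.32 (0.82 to 1.82), and was detected in 49 of 212 and 45 of 419 cells. Cxcl10 stood at 568 and 255 CPM, a log2 ratio of 1.15, in 71 and 97 cells. Gbp2 stood at 153 and 81.5 CPM (log2 ratio 0.91, 0.63 to 1.20), in 68 and 81 cells. These genes were thus spread over many cells. Cxcl9 was more concentrated: its 282 and 134 CPM (log2 ratio 1.07) came from 27 and 30 cells, and 1 cell alone gave 117 of 410 Trem2-/- UMIs and 76 of 320 Trem2+/+ UMIs. Its ratio was 0.40, under 1.5-fold, in cells with at most 1 UMI of cell cycle genes. Among the subsets described further on, Cxcl9 stood at 698 and 0 CPM in cycling cells. In cells with Ly6C monocyte genes it ran the other way, at 182 and 382 CPM. It was higher in Trem2-/- cells with Kupffer genes, and in those with none of the marker sets (236 and 48.2 CPM).

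The remaining members past 1.5-fold were Igtp (39.2 and 20.9 CPM, log2 ratio 0.91), Gbp5 (0.80), Gbp3 (0.79) and Iigp1 (0.61), all GTPases of the same families. Of these, Gbp5, Gbp3 and Iigp1 were each under 1.5-fold in at least 1 alternative. Their lowest ratios were 0.56, 0.32 and 0.30 in that order. Regulators of the pathway differed less. Irf1, a transcription factor induced by interferon-gamma, stood at 211 CPM in Trem2-/- and 166 CPM in Trem2+/+ cells (log2 ratio 0.35, 0.13 to 0.57). Irf8 was at 157 and 155 CPM (0.01), and its ratio was -0.12 in cells with no Gpnmb UMI. The receptor chain Ifngr1 stood at 321 and 387 CPM (-0.27) and Ifngr2 at 94.1 and 113 CPM (-0.26, -0.57 to 0.04). Counts of Gbp genes are less certain than others, because their sequences are alike and reads can be split among them, and the spans of Gbp4 and Gbp8 overlap on chromosome 5.

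**Figure D3:**
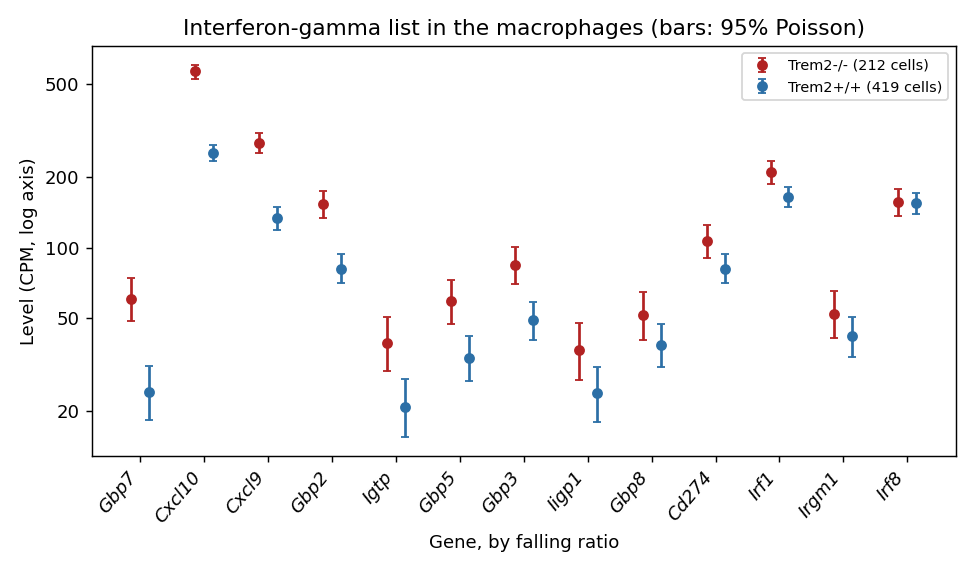
Level in CPM (log axis) of the 13 measured genes of the interferon-gamma list in Gpnmb-low macrophages, red for Trem2-/- (212 cells) and blue for Trem2+/+ (419 cells), with bars for exact 95% Poisson intervals. Red lies above blue for each gene, by least for Irf8 at 157 and 155 CPM; the intervals do not overlap for Gbp7, Cxcl10, Cxcl9, Gbp2, Igtp, Gbp5, Gbp3 and Irf1.

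Interferon-gamma acts on promoters at GAS elements (letters TTCNNNGAA), and interferon-regulatory factors act at ISRE elements (core GAAANNGAAA). Promoters from RefSeq (GRCm38.p6) were searched on both strands over the 250 bases before the start. A GAS was found in 7.02% and an ISRE core in 2.98% of 32851 mouse promoters, and either in 9.66%. Of the 7 genes of the list past 1.5-fold that had a promoter sequence, 6 held an ISRE core and 3 a GAS, and of the other 4 measured genes with one, 1 held an ISRE core and 2 a GAS. The list was drawn from known targets of interferon, so this share describes the list, and a match of letters is not a shown site. The promoters of Gbp7 (chr3:142530086-142530335, + strand), Igtp (chr11:58199306-58199555, + strand), Gbp2 (chr3:142620413-142620662, + strand) and Cxcl10 (chr5:92348890-92349139, - strand) are printed as examples of genes past 1.5-fold that hold a match, 5′ to 3′ on the gene's strand, with every match in capitals. The ISRE cores lie 53, 34, 59 and 213 bases before the start in that order, and may be read on either strand.
Gbp7: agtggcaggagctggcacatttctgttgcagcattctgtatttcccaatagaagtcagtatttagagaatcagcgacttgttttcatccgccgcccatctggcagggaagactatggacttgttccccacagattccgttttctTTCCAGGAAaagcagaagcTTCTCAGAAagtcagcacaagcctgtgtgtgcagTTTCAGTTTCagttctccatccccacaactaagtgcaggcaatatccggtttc
Igtp: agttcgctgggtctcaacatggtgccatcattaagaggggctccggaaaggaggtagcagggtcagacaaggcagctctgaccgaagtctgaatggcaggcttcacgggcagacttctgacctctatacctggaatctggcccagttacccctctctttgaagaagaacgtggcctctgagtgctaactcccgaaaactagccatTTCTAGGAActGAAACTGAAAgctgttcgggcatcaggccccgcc
Gbp2: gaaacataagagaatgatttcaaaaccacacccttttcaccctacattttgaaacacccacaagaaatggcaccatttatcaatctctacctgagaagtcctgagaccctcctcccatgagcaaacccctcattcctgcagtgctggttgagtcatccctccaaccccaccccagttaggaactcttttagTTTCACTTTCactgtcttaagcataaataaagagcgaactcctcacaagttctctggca
Cxcl10: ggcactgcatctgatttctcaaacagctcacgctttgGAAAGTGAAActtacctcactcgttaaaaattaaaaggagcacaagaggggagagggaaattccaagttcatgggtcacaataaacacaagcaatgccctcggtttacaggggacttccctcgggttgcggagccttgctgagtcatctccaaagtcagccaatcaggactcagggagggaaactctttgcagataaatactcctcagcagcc

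Gbp7 and Igtp thus hold both elements, Gbp2 and Cxcl10 an ISRE core without a GAS, and Cxcl9 neither within this window.

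Counted per cell at 2000 UMIs, at least 1 UMI of the 13 GTPase genes was present in 59.9% (51.9 to 67.5) of 162 Trem2-/- cells and 43.8% (38.2 to 49.6) of 308 Trem2+/+ cells. T and B cells, which also express these genes, gave 51.1% and 44.4%. At least 5 UMIs of the whole list of 21 genes were present in 23.5% (17.2 to 30.7) of the Trem2-/- macrophages and 11.04% (7.77 to 15.1) of the Trem2+/+ macrophages, against 7.24% and 7.09% of T and B cells. The median was 2 UMIs per macrophage in both libraries, while the median of the 13 GTPases was 1 in Trem2-/- and 0 in Trem2+/+ cells. In C1q-positive cells with at least 2 Gpnmb UMIs the median log2 ratio of the list was 0.50, and in Clec4f-positive cells it was 0.17. Whether these differ from the Gpnmb-low macrophages was not tested.

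Genes that answer mainly to type I interferon lay close to all genes. The median log2 ratio of 27 measured genes was 0.01, with 1 past 1.5-fold higher, Ifi205, at 74.9 CPM in Trem2-/- cells and 39.3 CPM in Trem2+/+ cells (0.93). Isg15, a ubiquitin-like protein, stood at 293 and 207 CPM (0.50), but Irf7, the amplifier of the type I response, stood at 210 and 298 CPM (-0.51, -0.70 to -0.31). In cells with no Ly6c2, Ccr2 or Chil3 UMI, the summed list stood at 3999 and 3008 CPM (0.41, 0.32 to 0.51).

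Antigen presentation genes had medians a little above 0 that depended on the cells counted. Of 9 measured genes of MHC class II and its loading, 8 had a log2 ratio above 0 and none passed 1.5-fold, with a median of 0.22. The invariant chain Cd74 stood at 24151 CPM in Trem2-/- cells and 21143 CPM in Trem2+/+ cells (0.19), and Ciita, the master activator of class II genes, at 88.6 and 63.1 CPM (0.49, 0.14 to 0.84). The summed class II ratio was 0.25 in cells with none of the marker sets described further on, but 0.01 in those with Kupffer genes, -0.02 in cycling cells and 0.03 in cells with no Ly6c2, Ccr2 or Chil3 UMI. For 15 class I genes the median was 0.10, and H2-Q7, a nonclassical class I gene, was the one past 1.5-fold, at 172 and 115 CPM. Among 9 ligands for T cells the median was 0.36, with Icosl, the ligand of ICOS (37.1 and 22.6 CPM, 0.72), and Vsig4 past 1.5-fold. That median was -0.06 after thinning to 2000 UMIs and 0.04 in cells with no Ly6c2, Ccr2 or Chil3 UMI.

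Of 14 inflammatory genes, 3 were past 1.5-fold higher, Il6, Il1a and Il1rn, and the median log2 ratio was 0.36. Il1a, the cytokine interleukin-1 alpha, stood at 113 CPM in Trem2-/- and 46.4 CPM in Trem2+/+ cells (1.29, 0.93 to 1.65), in 42 and 58 cells. Il1rn, which encodes the antagonist of the same receptor, stood at 581 and 325 CPM (0.84, 0.70 to 0.98), in 88 and 149 cells. Il1b stood at 2815 and 2129 CPM (0.40), Tnf at 788 and 610 CPM (0.37) and Nlrp3, an inflammasome sensor, at 129 and 93.6 CPM (0.46), all under 1.5-fold. Il18, another cytokine of the interleukin-1 family, had a ratio of 0.02. Il6 stood at 51.5 and 18.4 CPM (1.49), in 20 and 24 cells. In cells with no Ly6c2, Ccr2 or Chil3 UMI, the ratio of Il1rn was 0.17 and that of Tnf -0.33.

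Of 18 chemokine genes, 4 were at least 1.5-fold higher and 1 lower. Cxcl1, a neutrophil attractant, stood at 161 CPM in Trem2-/- and 83.2 CPM in Trem2+/+ cells (0.96), in 28 and 35 cells. Cxcl13, a B cell attractant, stood at 72.2 and 9.61 CPM, but 80 of its 105 Trem2-/- UMIs lay in 1 cell, and its log2 ratio of 2.91 became 1.67 without the top cell of each library. Ccl7, a monocyte attractant, stood at 15.8 and 33.0 CPM (-1.06), in 7 and 15 cells. Of the abundant chemokines, Cxcl2 stood at 3505 and 3089.7 CPM (0.18) and Ccl4 at 2025 and 2316 CPM (-0.19).

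Several other named genes on the higher side sat in few cells. Ly6c2, a surface protein of classical monocytes, stood at 139 CPM in Trem2-/- and 43.5 CPM in Trem2+/+ cells (1.68), in 21 and 33 cells. Lyz1, a lysozyme, stood at 104 and 40.5 CPM (1.36), in 16 and 24 cells, and took the opposite sign (-0.14) among cells with at least 10 C1q UMIs. AA467197, the mouse counterpart of human C15orf48, stood at 101 and 26.3 CPM (1.94), in 19 and 27 cells, and in cells with no Ly6c2, Ccr2 or Chil3 UMI it had 4 and 8 UMIs in all, a ratio of 0.016. Ly6c2, Chil3 (97.6 and 58.9 CPM) and the 8 classical monocyte genes together (1391 and 1094 CPM) ran in the same direction. Vsig4, a receptor for complement C3 fragments on Kupffer cells, stood at 161 and 49.3 CPM (1.70), in 33 and 30 cells. Its ratio was -0.49 among cells with at most 1 UMI of Kupffer genes. Vsig4 is itself counted among those genes, so that limit takes out the cells richest in it. Timd4, another Kupffer gene, had 27 UMIs in 3 cells against 1 UMI in 1 cell.

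Genes of glucose use were higher on balance. Of 16 measured genes, 13 had a log2 ratio above 0 and 4 passed 1.5-fold, with a median of 0.20. They were Slc16a3, the lactate exporter (62.5 CPM in Trem2-/- and 38.0 CPM in Trem2+/+ cells, 0.72), Hk2, a hexokinase (99.6 and 64.0 CPM, 0.64), and the phosphofructokinases Pfkl (0.63) and Pfkp (0.62). Each of the 4 was under 1.5-fold in at least 1 alternative, with lowest ratios of 0.56, 0.42, 0.22 and 0.58 in that order. Gapdh stood at 871 and 648 CPM (0.43, 0.32 to 0.53). Per thinned cell, the list averaged 7.67 UMIs in Trem2-/- and 6.86 UMIs in Trem2+/+ macrophages, with a median of 6 in both. T and B cells averaged 4.94 and 4.24 UMIs, so their mean too was higher in the Trem2-/- library. The median log2 ratio of the list was -0.14 in Gpnmb-high and -0.12 in Clec4f-positive cells. Whether the macrophages differ from these cells was not tested. Hilpda, which coats lipid droplets and blocks their lipase, stood at 96.2 and 47.7 CPM (1.01, 0.65 to 1.38), in 48 and 58 cells. Vegfa, the vascular growth factor, stood at 110 and 71.9 CPM (0.61). Socs3, a feedback inhibitor of cytokine signals, stood at 257 and 148 CPM (0.80, 0.59 to 1.01).

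**Figure D4:**
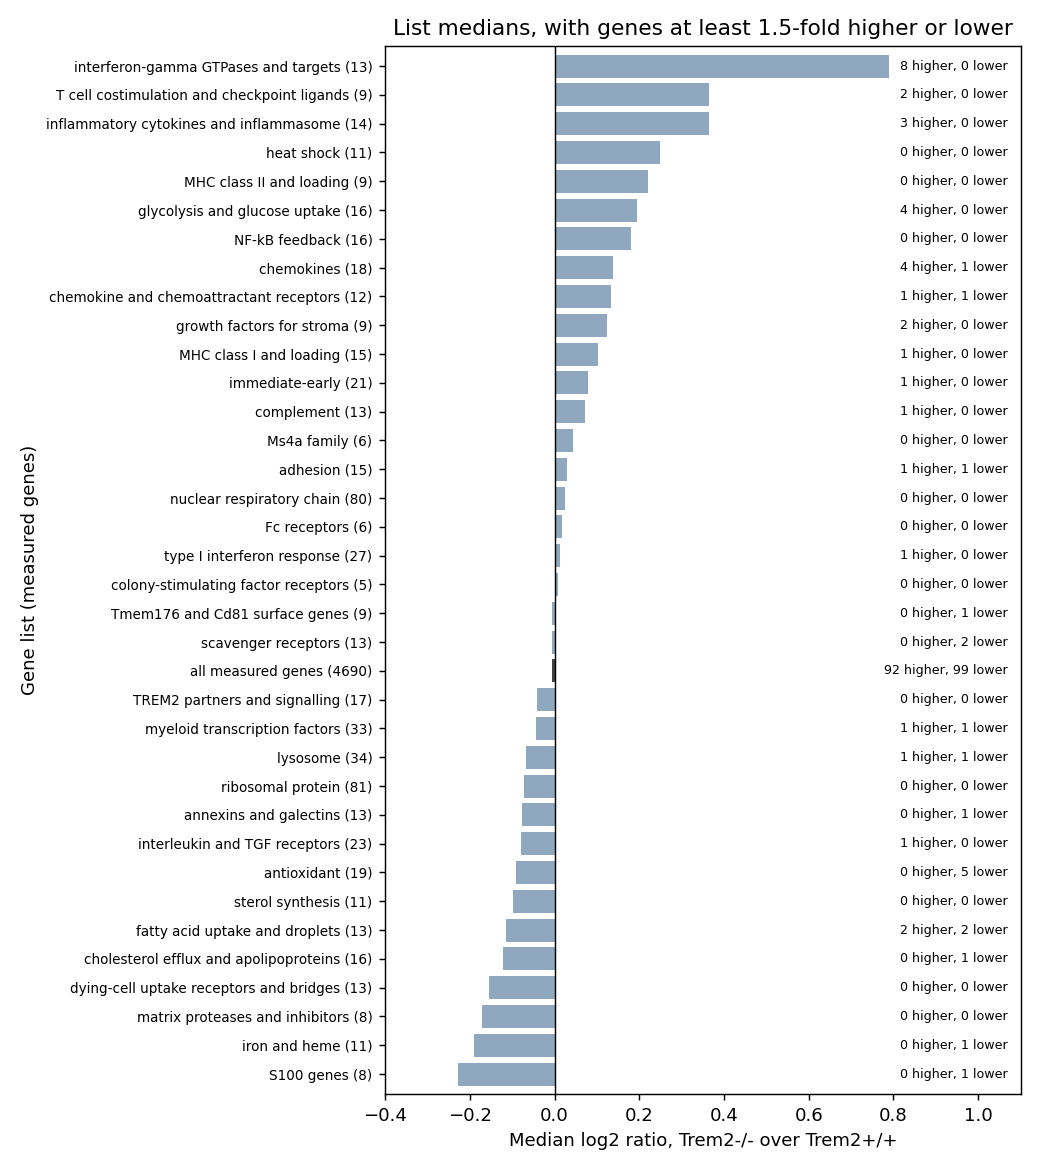
Median log2 ratio of Trem2-/- over Trem2+/+ in Gpnmb-low macrophages for each gene group, with the number of measured genes in brackets and, at the right, how many were at least 1.5-fold higher or lower. The interferon-gamma list stands at 0.79, the next groups at 0.36, and all 4690 measured genes (dark bar) at -0.01.

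On the lower side, 5 of 19 measured antioxidant genes were at least 1.5-fold lower in Trem2-/- cells and none higher, though the median was -0.09. Prdx1, an abundant peroxidase, stood at 1333 CPM in Trem2-/- and 2082 CPM in Trem2+/+ cells (-0.64, -0.72 to -0.57). Srxn1, which repairs oxidised peroxiredoxin, stood at 26.8 and 61.4 CPM (-1.20), and Gstm1, a glutathione transferase, at 52.2 and 113 CPM (-1.11, -1.50 to -0.74). Mgst1 (-0.77) and Txnrd1 (-0.61) were the others. Prdx1 and Txnrd1 were under 1.5-fold in some alternatives, at -0.41 and -0.38 when cells were weighted equally. Hmox1, which degrades heme, stood at 212 and 369 CPM (-0.80, -0.99 to -0.61), in 86 and 200 cells, and its ratio was -0.18 when cells were weighted equally. Nfe2l2, which encodes NRF2, the factor that drives many of these genes, stood at 549 and 464 CPM (0.24), while the ratio of Gpx1, a glutathione peroxidase, was 0.01 and that of Slc7a11, a cystine importer, -0.01.

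Lipid-associated macrophage genes were lower even though cells rich in Gpnmb had been left out. Of 9 measured markers, 4 were at least 1.5-fold lower and 8 had a log2 ratio below 0, with a median of -0.53 that was -0.30 without the 5% deepest cells. These counts and the median include Trem2, which is lower by genotype. Beside Trem2, the markers past 1.5-fold were Lpl, a lipase that frees fatty acids from lipoproteins (349 CPM in Trem2-/- and 552 CPM in Trem2+/+ cells, -0.66), Cd63 (273 and 429 CPM, -0.65) and Cd36, a fatty acid receptor (91.4 and 140 CPM, -0.62). Each was under 1.5-fold in some alternatives. Lpl was at -0.44 and Cd63 at -0.42 in cells with no Ly6c2, Ccr2 or Chil3 UMI, and Cd36 at -0.19 when cells were weighted equally. Lgals3, which encodes galectin-3, stood at 1005 and 1326 CPM (-0.40), and Fabp5 at 185 and 229 CPM (-0.31). Gpnmb, which the rule limits, was itself at 15.1 and 30.5 CPM among the chosen cells. In cells with no Gpnmb UMI the median of the markers was -0.54, and Cd63 and Cd36 were each at -0.56, under 1.5-fold. The part of Gpnmb in these ratios was not tested further. Per thinned cell, 8 of the markers averaged 5.06 UMIs in Trem2-/- and 6.34 UMIs in Trem2+/+ macrophages. T and B cells averaged 0.488 and 0.676 UMIs, so their mean too was lower in the Trem2-/- library. The shares of T and B cells with any UMI of these markers were close, at 27.3% and 28.7%. The part of a difference shared across cell types was not tested. Spp1, which encodes osteopontin, stood at 299 and 242 CPM (0.31), but 1 cell held 183 of 435 and 152 of 578 UMIs, and without those cells the ratio was -0.04. In cells with no Ly6c2, Ccr2 or Chil3 UMI, Spp1 had 10 Trem2-/- and 154 Trem2+/+ UMIs, a ratio of -2.93.

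Other named genes on the lower side were mostly spread over more cells. Rnase4, a secreted ribonuclease, stood at 32.3 CPM in Trem2-/- and 74.8 CPM in Trem2+/+ cells (-1.21, -1.71 to -0.74), in 12.7% and 22.4% of cells, but its ratio was -0.17 in cells with no Ly6c2, Ccr2 or Chil3 UMI. Apoc2, the cofactor of lipoprotein lipase, stood at 90.02 and 165 CPM (-0.87, -1.17 to -0.58), and Gdf15, a stress cytokine, at 266 and 446 CPM (-0.75). For Gdf15, 3 cells held 38.5% of the Trem2-/- UMIs, and its ratio was -0.50 in cells with at most 1 UMI of Kupffer genes. Anxa1, an annexin that restrains inflammation, stood at 45.4 and 84.0 CPM (-0.89), and its ratio was -0.21 after thinning to 2000 UMIs. H2-M3 (-0.82), Arhgap45 (-0.81), Glipr1 (-0.76), Nrp2 (-0.72) and Clec4d, a C-type lectin (-0.71), were the others. Glipr1, Nrp2 and Clec4d were each under 1.5-fold in at least 1 alternative. Glipr1 was at -0.24 after thinning, Nrp2 at -0.28 with cells weighted equally and Clec4d at -0.48 without the 5% deepest cells. Clu, with a log2 ratio of -4.44, rested on 1 Trem2+/+ cell that held 168 of 179 UMIs.

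Several groups showed no shift of this size. None of 17 measured TREM2 partners and signalling genes passed 1.5-fold in either direction, with a median of -0.04, and Tyrobp stood at 2653 CPM in Trem2-/- and 2740 CPM in Trem2+/+ cells (-0.05, -0.10 to 0.01). None of 13 receptors and bridges for dying cells passed, with a median of -0.15; Mertk stood at 103 and 108 CPM and Axl at 405 and 451 CPM. Of 34 lysosomal genes, 1 was higher (Gaa, 0.63) and 1 lower (Cd63), with a median of -0.07. Of 16 genes of cholesterol export and apolipoproteins, Apoc2 alone passed, and Abca1, the cholesterol exporter, stood at 130 and 129 CPM (0.01). Of 13 complement genes Vsig4 alone passed, while C3 (0.52), Cfb (0.51) and Cfp (0.47), all of the alternative pathway, lay just under 1.5-fold.

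The Gpnmb-low macrophages were not uniform, and marker counts split them into 4 subsets, chosen after the values had been seen. Cells with at least 2 UMIs of Mki67, Top2a, Birc5 and Cdk1 were called cycling, then cells with at least 2 UMIs of Vsig4, Timd4, Cd5l and Marco were set apart, then cells with at least 3 UMIs of Ly6c2, Chil3 and Plac8. Cycling cells were 22 of 212 (10.4%, 6.62 to 15.3) in the Trem2-/- library and 23 of 419 (5.49%, 3.51 to 8.12) in the Trem2+/+ library. Cells with Kupffer genes made up 21.7% and 20.5%, cells with Ly6C monocyte genes 20.3% and 19.6%, and the rest 47.6% and 54.4%. The cells with Kupffer genes had medians of 1817 and 3302 UMIs, under those of the other subsets, and the part of depth in their having no Clec4f UMI was not tested.

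Ms4a7, Apoe and H2-Ab1 varied among the subsets in a like order in both libraries, while Cx3cr1, Mrc1 and Vcam1 did not. Ms4a7 stood at 14.9 CPM in Trem2-/- and 56.1 CPM in Trem2+/+ cells with Ly6C monocyte genes, against 253 and 309 CPM in cells with none of the 3 marker sets. Apoe stood at 5083 and 8243 CPM in the cells with Ly6C monocyte genes and at 27307 and 26664 CPM in the cells with Kupffer genes. H2-Ab1, a class II chain, was highest in cells with none of the marker sets, at 6878 and 5976 CPM. Trem2 in the Trem2+/+ library ranged between 148 CPM in the cells with Ly6C monocyte genes and 448 CPM in those with Kupffer genes, while in the Trem2-/- library it was 4.98 and 59.5 CPM in the same subsets.

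The interferon-gamma list was higher in 3 of the 4 subsets. Summed over its 21 genes, it stood at 1971 CPM in all Trem2-/- cells and 1180 CPM in all Trem2+/+ cells, a log2 ratio of 0.74 (0.66 to 0.82). In cells with none of the marker sets the sums were 1879 and 872 CPM (1.11, 0.98 to 1.23), in cycling cells 2875 and 1377 CPM (1.06), and in cells with Kupffer genes 1756 and 941 CPM (0.90). In cells with Ly6C monocyte genes they were 1652 and 1749 CPM (-0.08, -0.22 to 0.06), so the library with the lower overall level had its highest level there. The 13 GTPases alone, without the concentrated chemokines, gave 0.75 (0.62 to 0.88) in all cells, 1.11 in cells with none of the marker sets and 0.17 (-0.08 to 0.42) in those with Ly6C monocyte genes. Among Trem2+/+ cells, these GTPases stood at 496 CPM (444 to 552) with Ly6C monocyte genes and 467 CPM (401 to 540) with Kupffer genes. The difference among subsets was not tested.

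**Figure D5:**
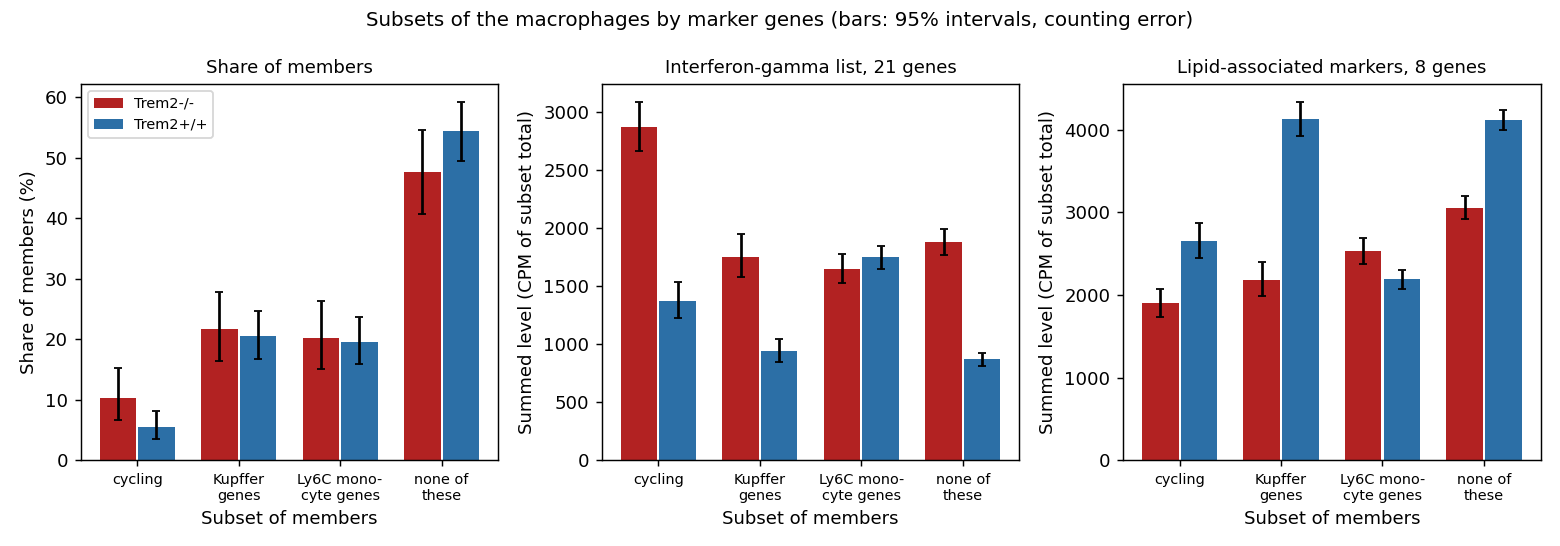
Share of the Gpnmb-low macrophages in each marker subset (left), summed level of the interferon-gamma list (middle) and of the lipid-associated markers other than Gpnmb and Trem2 (right), red for Trem2-/- and blue for Trem2+/+, with 95% intervals for counting error. The interferon-gamma sums are 1652 and 1749 CPM in cells with Ly6C monocyte genes and 1879 and 872 CPM in cells with none of the marker sets.

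Lipid-associated markers other than Gpnmb and Trem2 followed a like division. Their sum was 2590 CPM in all Trem2-/- cells and 3430 CPM in all Trem2+/+ cells (-0.41, -0.46 to -0.35). It was 2183 and 4129 CPM in cells with Kupffer genes (-0.92), 3054 and 4119 CPM in cells with none of the marker sets (-0.43), and 2531 and 2187 CPM in cells with Ly6C monocyte genes (0.21, 0.09 to 0.33). The antioxidant sum was 6962 and 9294 CPM in cells with none of the marker sets (-0.42, -0.47 to -0.36), and 10058 and 8669 CPM in cells with Ly6C monocyte genes (0.21). The glycolysis sum was higher in the cells with Ly6C monocyte genes, at 5374 and 4102 CPM (0.39, 0.31 to 0.47), and was 2803 and 2950 CPM in those with Kupffer genes (-0.07, -0.22 to 0.07).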

How the data were processed

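The deposited files hold raw UMI counts per gene and barcode for 1 library per group, written by Cell Ranger 5.0.1 per the file headers. The submitters' processing notes name mm10. The sources used here do not name the annotation release. Of 32285 gene identifiers, 32235 (99.8%) were in GENCODE M21, the source of gene coordinates. The libraries held 25288032 UMIs over 6362 barcodes (Trem2-/-) and 27238586 over 7012 (Trem2+/+).

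Counts of the chosen cells were summed per library and divided by their total (CPM). Levels have exact Poisson, shares exact binomial (Clopper-Pearson) and ratios of levels exact conditional binomial intervals; ratios of shares have large-sample intervals. Shares of cells were also computed after thinning each cell to 2000 UMIs; shallower cells were left out, 50 of 212 (Trem2-/-) and 111 of 419 (Trem2+/+). Scripts used Python 3.11.15, numpy 2.4.6, scipy 1.17.1 and pandas 2.3.3 and were tested on simulated data. No doublet caller was run; an alternative left out the 5% deepest cells.

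Genes counted as measured averaged 20 CPM or more, with 100 UMIs or more in total and a UMI in each library. Named genes are Trem2, the markers, members of the 54 lists, and the 12 highest and 12 lowest ratios among genes past 1.5-fold that averaged 50 CPM or more, and the 8 highest and 8 lowest against each other gate. That ranking left out genes of the rule, mitochondrial, ribosomal protein, haemoglobin, receptor and immunoglobulin segment, sex-linked Y and Xist, hepatocyte and predicted genes. Clu was named after its values were seen. The cells and lists were chosen with earlier results of these data known. Alternatives numbered 17 planned and 3 added after the data were seen.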

Additional observations from a re-analysis of the deposited data

Results flagged for a closer look

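For 4 genes the Gpnmb-low macrophages and another gate of C1q-positive cells pointed in opposite directions, with both intervals clear of 0. In each case the difference between the gates was not tested. Lyz1 had a log2 ratio of 1.36 in Gpnmb-low macrophages and -0.88 (-1.26 to -0.52) in cells with at least 2 Gpnmb UMIs, from 71 Trem2-/- and 541 Trem2+/+ UMIs. Rnase4 had -1.21 in Gpnmb-low macrophages and 0.90 (0.44 to 1.34) in cells with at least 2 Gpnmb UMIs, from 61 and 136 UMIs. Hilpda had 1.01 in Gpnmb-low macrophages and -0.72 (-1.39 to -0.09) in Clec4f-positive cells, from 30 and 71 UMIs. Cxcl1 had 0.96 in Gpnmb-low macrophages and -1.48 (-2.16 to -0.85) in Clec4f-positive cells, from 26 and 104 UMIs.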

How the results depend on the processing

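No paired analysis was possible because each group has 1 library. Of 18 alternatives for the gene counts, 14 left the 92 higher and 13 the 99 lower genes within 1.5 times. The exceptions were 269 higher and 230 lower genes with the mean of per-cell CPM, 36 and 25 after thinning to 2000 UMIs, 1779 and 1498 with no filter on low levels, 13 and 12 with a mean of at least 100 CPM, and 48 lower among cells with no Ly6c2, Ccr2 or Chil3. In those cells 86 in place of 130 genes were lower than in Gpnmb-high cells, and 123 in place of 214 higher and 134 in place of 274 lower than in Clec4f-positive cells. The log2 ratio of the share was -1.18 with the rule applied to thinned cells and 0.043 as a share of C1q-positive cells. The median of the interferon-gamma list lay between 0.07 and 1.09: it was 0.07, with 4 genes measured and 1 past 1.5-fold, in cells with no Ly6c2, Ccr2 or Chil3, where its summed ratio was still 0.78 (0.62 to 0.95), 0.57 (5 of 11) without the 5% deepest cells, and 0.44 (5 of 11) without cycling cells, an alternative added after the data were seen. Of the 24 genes named by rank, 12 stayed past 1.5-fold under every alternative run and 12 did not under at least 1. Among genes past 1.5-fold, signs turned for Vsig4 (-0.49, at most 1 Kupffer UMI, also added then), Lyz1 (-0.14, C1q of at least 10), Ccl7 (0.45), Ccl8 (0.016, from 1 and 2 UMIs) and H2-Oa (-0.31, from 2 and 5 UMIs) in cells with no Ly6c2, Ccr2 or Chil3, H2-Oa (-1.24) and Il27 (0.51) after thinning, Il27 (0.0945) with per-cell means, and Il12b (-0.29) without the 5% deepest cells. Among printed genes under 1.5-fold, signs that turned in cells with no Ly6c2, Ccr2 or Chil3 included Spp1 (-2.93), Osm (-1.38) and Apoc1 (0.71). Others included Gbp8 (-0.43), Tnf (-0.33), Il18 (-0.31), H2-Ab1 (-0.15), Irf1 (-0.06), Nfe2l2 (-0.06) and Cxcl2 (-0.006). The limit of at most 1 Kupffer UMI counts Vsig4 itself, so it takes out the cells richest in Vsig4. The cause of the turned signs was not tested. The median used for scaling by ratios was -0.01, so that every ratio became higher by this amount. Low genes are limited by depth, since 1 UMI is worth 0.687 CPM in Trem2-/- and 0.418 CPM in Trem2+/+ cells.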
